A study of Mus musculus with 8 samples.

Results

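The complement genes described here are 9 rows of a gene expression table of mouse skin that holds 21885 named genes. They were chosen by symbol, as components, a regulator and a receptor of the complement system: C1qa, C1qb, C1qc, C1ra, C4b, C3, Cfb, Cfp and C3ar1. All 9 were found, each on 1 row. The tissue was skin treated with MC903 plus phytic acid (4 libraries) or with MC903 alone (4 libraries, titled control by the submitters), and the design names the comparison of these groups. MC903, or calcipotriol, is an analogue of vitamin D used on mouse skin to bring on dermatitis, and phytic acid is inositol hexaphosphate from plant seeds. Both groups had received MC903 and neither was untreated skin. The labels give no strain, age, body site, dose or duration, and do not say whether each library came from its own mouse, so p-values measure only the spread between these samples. Values are FPKM, a read count divided by gene length and by the reads of its library. Library totals recovered from them ran from 38310034 to 42997271 reads with phytic acid and from 31676934 to 37639476 reads with MC903 alone. Within a group, the chi-square per gene between libraries was 43.6 to 192, well beyond sampling of reads. MC903 replicate 3 stood farthest from its group, at 157 to 192 against each of the other MC903 libraries, and values without it are given where it decides a result.

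Complement is a chain of blood and tissue proteins that tags surfaces for removal and draws in leukocytes. In the classical pathway the recognition molecule C1q binds its target, and the proteases C1r and C1s carried with it cleave C4 and C2. In the alternative pathway C3 activates itself with factor B and factor D, stabilised by properdin, and the C3a fragment signals through its receptor on leukocytes. The liver makes most of the plasma proteins. C1q and properdin come largely from leukocytes, and fibroblasts and other cells of the skin also make C1r, C1s, C3 and C1 inhibitor.

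Of the 9 genes, 8 passed the filter on low values (4 or more libraries with an FPKM of 1 or above) and 2 of those, C3 and C1ra, rose with phytic acid. C3 was 2.08 times as high by group mean, and C1ra, a protease gene of the first complement complex, was 1.66 times as high. The 3 C1q chain genes, C4b, Cfp and C3ar1 were not called, and Cfb was below the filter. A call is an adjusted p under 0.05 by limma on log2(FPKM + 1) over 12165 genes. Of these, 14.2% were called higher and 11.6% were called lower with phytic acid, and the median log2 fold change was 0.05. The 2 of 8 tested members called higher and 0 called lower, with a median of 0.26, are counts too small to read against that background.

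**Figure D1:**
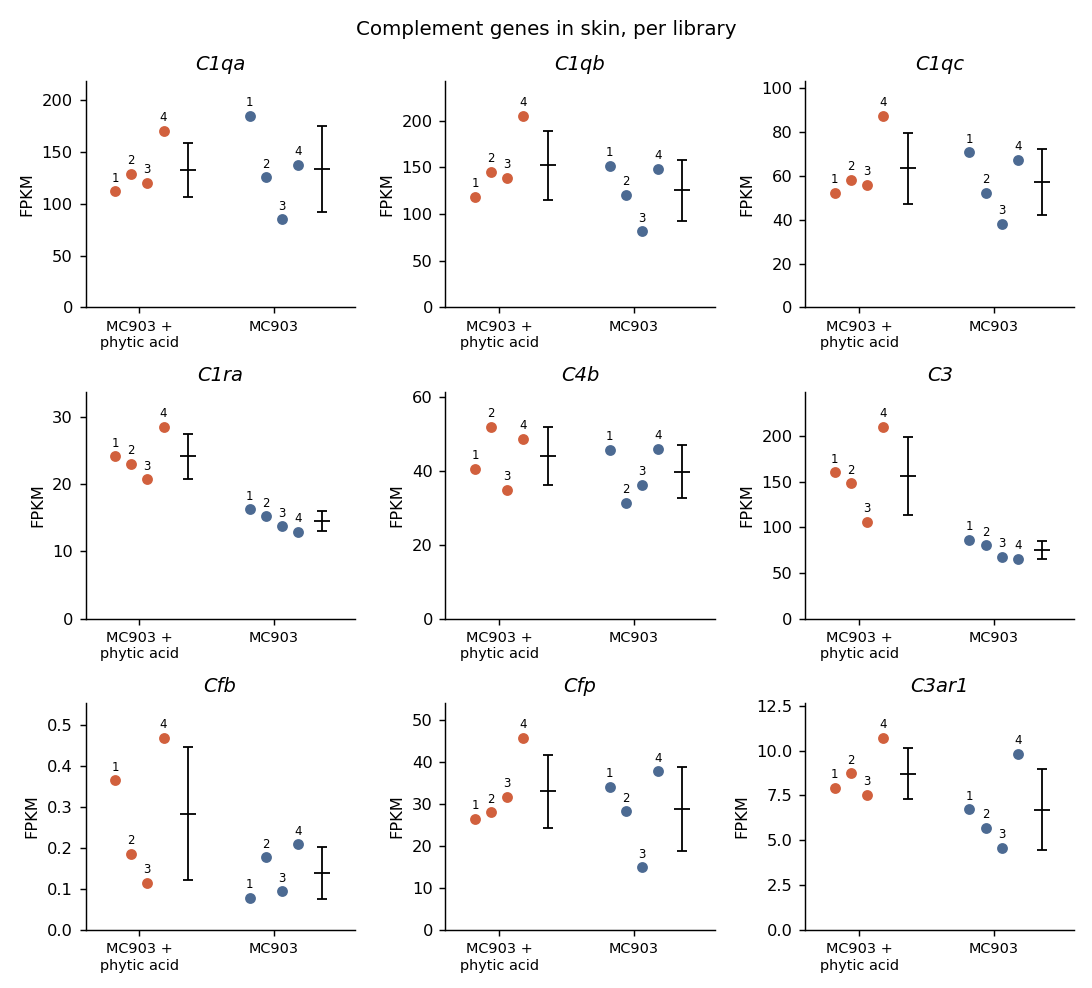
FPKM (vertical axis, from 0) of each of the 9 complement genes in the 4 MC903 plus phytic acid libraries (left, orange) and the 4 MC903 libraries (right, blue), numbered by replicate, with mean and SD as black bars. The groups are apart for C1ra and C3 and overlap for the other genes.

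C3 is the protein on which all complement pathways meet. The gene lies on chromosome 17 at 57203970 to 57228136 of GRCm38 (the assembly that mm10 names), on the minus strand, and is protein-coding. The upstream sequence is shown because C3 had the larger change of the members called. That of C1s1, the partner protease gene of C1ra, is shown as a gene of the first complex that rose, and that of C1qb as one that was not called. Each is the 250 bases before the RefSeq start (GRCm38.p6), 5′ to 3′ on the gene's strand, with motif matches in capitals. C3 is at chr17:57228137-57228386 (minus strand), C1s1 at chr6:124542360-124542609 (minus strand, the start site farther upstream of the pair listed) and C1qb at chr4:136886201-136886450 (minus strand).
C3: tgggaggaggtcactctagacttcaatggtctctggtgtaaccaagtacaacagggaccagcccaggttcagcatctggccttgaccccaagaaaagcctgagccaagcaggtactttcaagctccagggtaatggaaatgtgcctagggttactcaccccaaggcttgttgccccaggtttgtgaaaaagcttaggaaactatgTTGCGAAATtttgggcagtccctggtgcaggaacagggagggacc
C1s1: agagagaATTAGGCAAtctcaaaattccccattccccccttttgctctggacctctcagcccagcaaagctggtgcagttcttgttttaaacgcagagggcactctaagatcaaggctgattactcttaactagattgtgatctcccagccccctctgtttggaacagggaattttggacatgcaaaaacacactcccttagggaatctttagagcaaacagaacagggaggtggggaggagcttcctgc
C1qb: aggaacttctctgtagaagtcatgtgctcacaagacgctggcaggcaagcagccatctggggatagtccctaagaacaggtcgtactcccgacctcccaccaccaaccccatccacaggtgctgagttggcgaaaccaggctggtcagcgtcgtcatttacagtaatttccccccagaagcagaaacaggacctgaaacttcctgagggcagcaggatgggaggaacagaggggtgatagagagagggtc

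The capitals mark TTGCNNAAT, a pattern bound by the C/EBP factors of the acute phase response, searched on both strands. In C3 it stood 45 to 37 bases before the start on the gene's strand, and in C1s1 it stood 243 to 235 bases before the start on the opposite strand. The other C1s1 start site in the table had no match in its 250 bases. Of 32851 upstream regions of the same length in the table, 2.11% held it. The search also covered an interferon-stimulated response element (a GAAA repeat after any 2 bases), found in 2.98% of regions, and a gamma-activated site (TTCNNNGAA), found in 7.02%. NF-kappaB-like patterns in 3 spellings were found in 1.41%, 1.53% and 1.41%. A PU.1-like pattern (AGAGGAAGT) was found in 0.798%, and a vitamin D response element (a direct repeat with any 3 bases between) in 0.00609%. No motif overlapped another in the sequences printed, and none of the 8 had a match in that of C1qb. A match is a description of letters, not of a bound factor. Outside the members only C1s1 was searched, and the other complement genes called were not. The sequences printed therefore give no contrast between called and uncalled genes. Upstream sequences were matched for 6 of the 9 members, of which C3ar1 also held a match, an NF-kappaB-like pattern 14 to 5 bases before the start. C1ra, the other member called, was searched and held no match to any of the 8, nor did C1qc or Cfp. The C1ra sequence is not printed because 216 of its 250 bases lie inside the annotated gene.

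C3 stood at 160.1, 148, 106 and 210.1 FPKM in MC903 plus phytic acid replicates 1 to 4, against 86.3, 80.3, 67.7 and 65.7 FPKM in MC903 replicates 1 to 4. The groups did not overlap, and the phytic acid libraries were also the more uneven, with replicate 3 lowest and replicate 4 highest. The mean was 156 ± 42.8 FPKM with phytic acid and 75.0 ± 9.93 FPKM with MC903 alone (SD, n = 4 each). The log2 fold change was 1.01 ± 0.19 (SE), with a 95% interval of 0.58 to 1.45 and an adjusted p of 0.00559 by limma. It kept its direction and its call under each of the 20 other settings, from 0.86 to 1.185. The values rest on 12634 to 44057 reads per library.

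C1ra encodes C1r, the protease that C1q activates first and that in turn cleaves C1s. It lies on chromosome 6 at 124512405 to 124523443, on the plus strand. Its FPKM was 24.2, 23.0, 20.8 and 28.6 in MC903 plus phytic acid replicates 1 to 4, against 16.3, 15.2, 13.8 and 12.95 in MC903 replicates 1 to 4. Here too the lowest phytic acid library was above the highest MC903 library, and replicates 3 and 4 were again the extremes among the phytic acid libraries. The means were 24.1 ± 3.28 FPKM with phytic acid and 14.6 ± 1.49 FPKM with MC903 alone (SD, n = 4 each), a log2 fold change of 0.69 ± 0.12 (SE; adjusted p = 0.00323 by limma; 0.61 to 0.75 under the 20 other settings, called in each). Non-overlap as for C3 and C1ra was seen upward in 14.3% and downward in 13% of the genes tested. The close copy C1rb stood at 0.0404 to 0.0808 FPKM with phytic acid and 0.0128 to 0.1203 FPKM with MC903 alone. The sources used here do not say how reads common to such copies were assigned.

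C1qa, C1qb and C1qc encode the A, B and C chains of C1q, which assemble in equal numbers, and lie side by side on chromosome 4. C1qa spans 136895917 to 136898803, C1qc 136889804 to 136893065 and C1qb 136880129 to 136886187, all on the minus strand. C1qa was at 112, 129, 120.1 and 170.1 FPKM in MC903 plus phytic acid replicates 1 to 4 and at 185, 126, 85.0 and 138 FPKM in MC903 replicates 1 to 4. The MC903 values enclosed those of the phytic acid libraries, with the highest and the lowest value both among MC903 libraries. The mean was 133 ± 25.9 FPKM with phytic acid and 133 ± 41.2 FPKM with MC903 alone (SD, n = 4 each). The log2 fold change was 0.03 ± 0.22 (SE; adjusted p = 0.943 by limma), and its 95% interval of -0.48 to 0.53 leaves room for a change of either sign.

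C1qb had 119, 145, 139 and 205 FPKM in MC903 plus phytic acid replicates 1 to 4, against 151, 121, 81.3 and 148 FPKM in MC903 replicates 1 to 4. Phytic acid replicate 4 lay above every MC903 library, while the other 3 fell within the MC903 range. The log2 fold change was 0.29 ± 0.22 (SE), with an interval of -0.22 to 0.79 and an adjusted p of 0.379 by limma. C1qc was lower per kilobase, at 52.3, 58.2, 56.0 and 87.6 FPKM with phytic acid and 71.0, 52.3, 38.2 and 67.4 FPKM with MC903 alone, and its log2 fold change of 0.16 ± 0.22 (SE) was not called (adjusted p = 0.632 by limma). MC903 replicate 3 was the lowest of the 8 libraries for each of the 3 chains. Without it the log2 fold changes were -0.17 for C1qa, 0.10 for C1qb and -0.019 for C1qc. Without phytic acid replicate 4 they were -0.10 for C1qa, 0.13 for C1qb and -0.004 for C1qc, so that the sign of C1qa and C1qc rests on those libraries.

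The chains varied together over the libraries, but not in fixed proportion. The ratio of C1qb to C1qa was 1.06 to 1.21 with phytic acid and 0.818 to 1.07 with MC903 alone, with 3 of 4 phytic acid libraries above every MC903 library, and that of C1qc to C1qa was 0.452 to 0.515 with phytic acid and 0.383 to 0.490 with MC903 alone. After subtraction of group means, Pearson's r over the 8 libraries was 0.94 for C1qa with C1qb, 0.95 for C1qa with C1qc and 0.99 for C1qb with C1qc. These are descriptions over libraries that share a scaling to the library total. C3 to C1qa, by contrast, was 0.883 to 1.43 with phytic acid and 0.466 to 0.796 with MC903 alone. An exact two-sided permutation test of the log2 ratio gave p = 0.0286 for C3 to C1qa (difference 0.996, n = 4 each), the smallest p that 4 against 4 allows. It gave the same p for C3 to C1qc (0.86) and C1ra to C1qa (0.70). Of 6 such ratios, tested after the values had been seen, the adjusted p was 0.0571 for these 3, 0.0686 for C3 to C1qb and C1ra to C1qc, and 0.143 for C1ra to C1qb. None passed. Only 3 of the 6 ratios reached the smallest p that 4 against 4 allows, which left their adjusted p at 0.0571 by the permutation test. A different change of C3 or C1ra than of the C1q chains was therefore not shown. With 4 libraries in each group, that does not show an equal change.

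**Figure D2:**
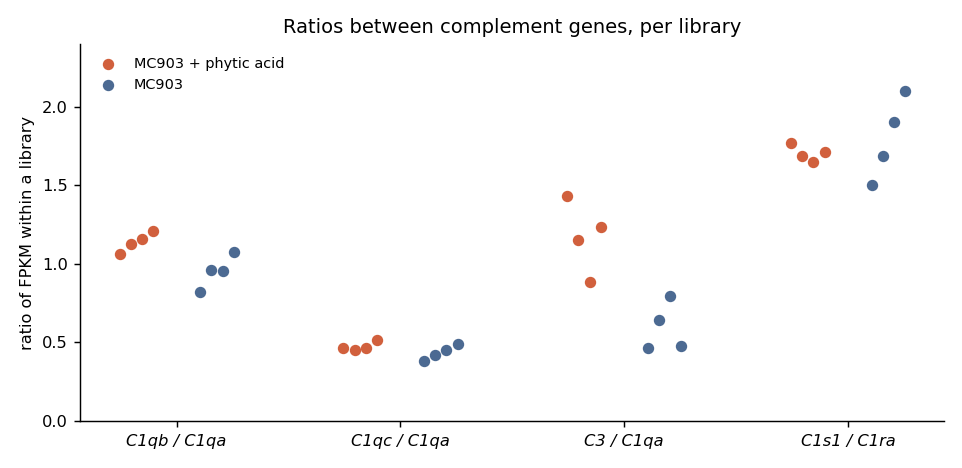
Ratio of FPKM between pairs of complement genes within each library (vertical axis, from 0), with the 4 MC903 plus phytic acid libraries (orange) left of the 4 MC903 libraries (blue). C3 to C1qa is 0.883 to 1.43 with phytic acid and 0.466 to 0.796 with MC903 alone, while the ratios among C1q chains and of C1s1 to C1ra overlap between groups.

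C4b encodes complement C4, which C1s cleaves and which becomes part of the classical C3 convertase. It lies on chromosome 17 at 34728380 to 34743882, on the minus strand. It was at 40.5, 51.9, 34.8 and 48.6 FPKM in MC903 plus phytic acid replicates 1 to 4 and at 45.7, 31.3, 36.1 and 45.9 FPKM in MC903 replicates 1 to 4. Phytic acid replicates 2 and 4 were above every MC903 library and MC903 replicate 2 was below every phytic acid library, with the other 5 intermixed. Its log2 fold change of 0.14 ± 0.16 (SE; interval -0.22 to 0.51) was not called (adjusted p = 0.553 by limma). The near-identical copy C4a was not among the rows analysed here, so the value of C4b may hold reads of both.

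Cfp encodes properdin, the positive regulator that stabilises the alternative convertase, and lies on the X chromosome at 20925454 to 20931555. Its FPKM was 26.5, 28.1, 31.8 and 45.8 in MC903 plus phytic acid replicates 1 to 4, against 34.1, 28.3, 14.9 and 37.8 in MC903 replicates 1 to 4. Replicate 4 of the phytic acid group was the highest and replicate 3 of the MC903 group the lowest, with the rest intermixed. The log2 fold change was 0.24 ± 0.28 (SE; adjusted p = 0.566 by limma), and -0.039 without MC903 replicate 3.

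Cfb encodes factor B, the protease that joins C3b in the alternative convertase, and was barely detected. It stood at 0.365, 0.185, 0.115 and 0.469 FPKM in MC903 plus phytic acid replicates 1 to 4, from 42, 20, 14 and 54 reads. In MC903 replicates 1 to 4 it stood at 0.0782, 0.177, 0.0940 and 0.208 FPKM, from 7, 16, 10 and 22 reads. The groups overlapped, and without the filter the adjusted p by limma was 0.331. The gene lies on chromosome 17 at 34856374 to 34862518 and overlaps Gm20547 (34856412 to 34882042), an annotated gene that also overlaps part of C2. Only 579 of the 2825 exon bases of Cfb lie in no other gene, and Gm20547 was listed at 0 in every library, so reads in the shared bases may be missing from the value of Cfb.

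C3ar1 encodes the receptor of C3a and lies on chromosome 6 at 122847138 to 122856161. It was at 7.91, 8.72, 7.53 and 10.7 FPKM in MC903 plus phytic acid replicates 1 to 4 and at 6.73, 5.68, 4.58 and 9.82 FPKM in MC903 replicates 1 to 4. Every phytic acid library was above 3 of the MC903 libraries, and MC903 replicate 4 lay among the phytic acid values. The log2 fold change was 0.37 ± 0.19 (SE; interval -0.07 to 0.80; adjusted p = 0.194 by limma). Without MC903 replicate 4 it was 0.55 with an adjusted p of 0.0409 by limma.

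In order of mean level with phytic acid the members were C3, C1qb, C1qa, C1qc, C4b, Cfp, C1ra, C3ar1 and Cfb. With MC903 alone the order was the same apart from the top 3, where C1qa (133 FPKM) and C1qb (125 FPKM) stood above C3 (75.0 FPKM). The ranges over libraries of C3, C1qb and C1qa overlapped with phytic acid, as did those of C4b and Cfp and those of Cfp and C1ra. C3ar1 was below C1ra in every library of either group.

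The complement genes listed, members included, gave 9 called higher and 1 called lower among the 31 tested of 59. The members C3 and C1ra are among the 9, and the median log2 fold change was 0.23 (0.05 over all genes tested). Over all genes tested 14.2% were called higher and 11.6% lower, and the smaller counts by role below are given as counts only, to be read beside those shares. The list was drawn up with earlier results of these data known. Of 11 tested genes of the classical and lectin pathway, C1ra, C1s1 and C2 rose and Masp1 fell. C1s1, the protease that C1r activates, was at 41.2 ± 6.26 FPKM with phytic acid and 25.9 ± 1.16 FPKM with MC903 alone (SD, n = 4 each), a log2 fold change of 0.64 ± 0.11 (SE; adjusted p = 0.00406 by limma). C1s1 stayed at 1.65 to 1.77 times C1ra with phytic acid and 1.501 to 2.10 times C1ra with MC903 alone. C2, the protease of the classical convertase, averaged 1.37 ± 0.128 FPKM with phytic acid and 0.830 ± 0.149 FPKM with MC903 alone (SD, n = 4 each; adjusted p = 0.0255 by limma). It reached an FPKM of 1 in 4 phytic acid libraries and 1 MC903 library, so it passed the filter through the group where it was higher, and its call is no support for the count. Masp1, a protease of the lectin pathway, averaged 5.43 ± 0.938 FPKM with phytic acid and 8.23 ± 1.38 FPKM with MC903 alone, a log2 fold change of -0.52 ± 0.14 (SE; adjusted p = 0.0243 by limma).

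The calls of C2 and Masp1 were lost under several settings. That of C2 was lost without phytic acid replicate 3 or 4 (adjusted p = 0.0522 and 0.0709 by limma), without MC903 replicate 1 or 2 (0.0633 and 0.0661) and after quantile normalization (0.111). That of Masp1 was lost without phytic acid replicate 1 or 4 (adjusted p = 0.0654 and 0.0647 by limma), without MC903 replicate 1 or 4 (0.0747 and 0.0697) and without a filter (0.0643). C2 shares exons with Gm20547 and Zbtb12, and 2055 of its 3872 exon bases lie in no other gene.

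In the alternative pathway Cfd joined C3. Cfd encodes factor D, also called adipsin, which cleaves factor B and is made in quantity by adipocytes. It stood at 628, 457, 374 and 669 FPKM in MC903 plus phytic acid replicates 1 to 4, against 100.3, 134, 326 and 130.5 FPKM in MC903 replicates 1 to 4. The groups did not overlap, although MC903 replicate 3 was close to the lowest phytic acid library. The log2 fold change was 1.74 ± 0.34 (SE; adjusted p = 0.00678 by limma), and it was called under each of the 20 other settings. Of 9 adipocyte markers tested, 2 (Adipoq and Retn) were called higher, 0 lower and 7 were not called, beside 14.2% higher and 11.6% lower over all genes tested. The summed level of the 10 markers listed was 338 to 569 FPKM with phytic acid and 198 to 316 FPKM with MC903 alone. Adipoq was at 72.9 ± 40.4 FPKM with phytic acid and 16.9 ± 14.6 FPKM with MC903 alone (SD, n = 4 each). Their part in the rise of Cfd was not tested.

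Of 8 tested regulators, which hold complement in check, 3 rose and 0 fell. Serping1 encodes C1 inhibitor, which blocks C1r and C1s, and was at 124 ± 12.95 FPKM with phytic acid and 73.1 ± 7.83 FPKM with MC903 alone (SD, n = 4 each), a log2 fold change of 0.76 ± 0.12 (SE; adjusted p = 0.00208 by limma). Cd55, the decay-accelerating factor of the cell surface, was at 15.7 ± 2.62 FPKM with phytic acid and 6.30 ± 1.35 FPKM with MC903 alone (1.196 ± 0.16, SE; adjusted p = 0.00105 by limma). Cd59a, which blocks the membrane pore, was at 17.9 ± 2.08 FPKM with phytic acid and 12.2 ± 0.714 FPKM with MC903 alone (0.51 ± 0.10, SE; adjusted p = 0.00598 by limma). Each of these 3 was called under all 20 other settings. The mouse regulator Cr1l (Crry) had a log2 fold change of -0.04 ± 0.11, Cd46 0.08 ± 0.14 and Clu (clusterin) 0.47 ± 0.25 (SE), and none of these was called. Without MC903 replicate 3, Clu was called higher (0.73, adjusted p = 0.00546 by limma).

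Among 7 tested receptors 1 rose. Itgax, the alpha chain of complement receptor 4 and a marker of dendritic cells, was at 7.55 ± 2.30 FPKM with phytic acid and 2.41 ± 0.164 FPKM with MC903 alone (SD, n = 4 each; log2 fold change 1.28 ± 0.20, SE; adjusted p = 0.00222 by limma). Itgb2, the beta chain that it shares with Itgam, had 0.63 ± 0.24 (adjusted p = 0.0823 by limma; 0.0259 without MC903 replicate 4). Itgam, of which 1574 of 5024 exon bases lie in no other gene, had 0.05 ± 0.37, Cd93 -0.17 ± 0.18 and the C5a receptor gene C5ar1 -0.35 ± 0.24, none called. The last was called lower without MC903 replicate 3 (-0.57, adjusted p = 0.0382 by limma).

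The terminal genes, which build the membrane pore, were low. Only C6 and C7 of 7 passed the filter, and neither was called. Hc, the mouse gene of C5, stood at 0.0148 to 0.0900 FPKM with phytic acid and 0.0199 to 0.106 FPKM with MC903 alone. Cfi (factor I) was at 0.0111 to 0.0884 FPKM with phytic acid and 0.0241 to 0.0711 FPKM with MC903 alone, and C5ar2 at 0.425 to 0.489 FPKM with phytic acid and 0.343 to 0.754 FPKM with MC903 alone.

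**Figure D3:**
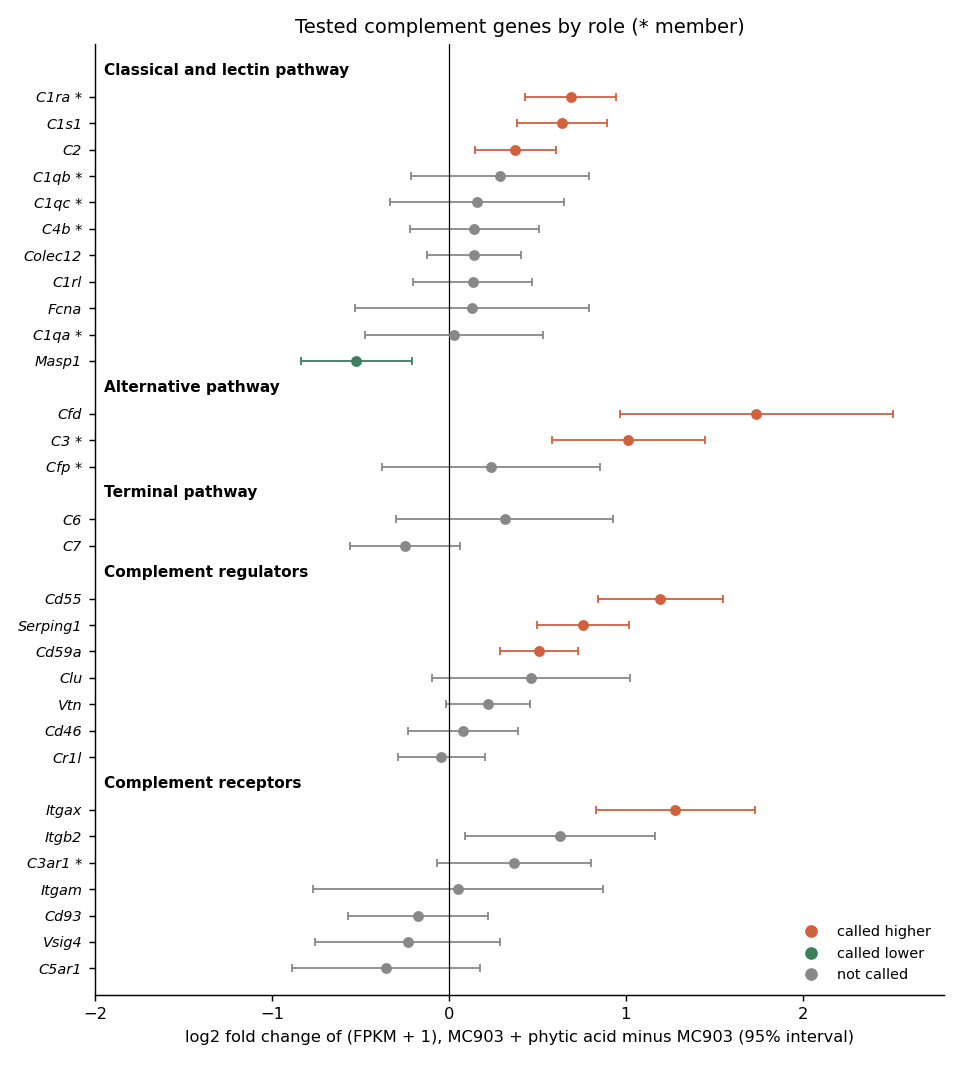
Log2 fold change of FPKM + 1, MC903 plus phytic acid minus MC903 (horizontal axis), with 95% intervals for tested complement genes, grouped by role, members starred. The 9 genes called higher are orange, the 1 called lower is green and those not called are grey.

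Bulk skin RNA cannot tell more cells of a type from more RNA per cell. Macrophage and monocyte markers had 4 of 15 tested called higher and 0 lower, beside 14.2% higher and 11.6% lower over all genes tested. Ccr2 (log2 fold change 1.73 ± 0.30, SE), Lyz2 (0.89 ± 0.17) and Adgre1 (0.77 ± 0.20) led these, while Cd68 (-0.17) and Mrc1 (-0.03) were not called. The summed level of the 17 markers listed was 1005 to 1421 FPKM with phytic acid and 576 to 894 FPKM with MC903 alone. Much of that sum was Lyz2, at 639 to 908 FPKM with phytic acid and 342 to 510 FPKM with MC903 alone. The mean log2(FPKM + 1) of the 15 overlapped between the groups, at 4.41 to 4.98 with phytic acid and 3.83 to 4.75 with MC903 alone. MC903 replicate 3 was lowest for it, as for C1qa, C1qb, C1qc, Cfp and C3ar1. After subtraction of group means, the correlation with that mean over the 8 libraries was 0.97 for C3ar1, 0.91 for C1qc, 0.90 for Cfp, 0.87 for C1qb and 0.76 for C1qa, against 0.65 for C4b, 0.41 for C3 and 0.32 for C1ra. These correlations describe 8 libraries and carry no test.

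C3 relative to the macrophage marker mean was 2.33 to 2.79 on the log2 scale with phytic acid and 1.31 to 2.28 with MC903 alone, without overlap. C1ra on that scale was -0.09 to 0.12 with phytic acid and -0.95 to 0.06 with MC903 alone, with overlap. Of 11 fibroblast markers, 3 were called higher, 0 lower and 8 were not called, beside 14.2% higher and 11.6% lower over all genes tested. Their median log2 fold change was 0.61, and only Dcn and Dpt did not overlap between the groups. Their summed level was 608 to 1180 FPKM with phytic acid and 458 to 553 FPKM with MC903 alone. Dcn alone was at 288 to 430 FPKM with phytic acid and 186 to 252 FPKM with MC903 alone. Dpt (1.33 ± 0.22, SE), Dcn (0.61 ± 0.15) and Pi16 (1.48 ± 0.47) were those called, while Pdgfra (0.00) was not. Relative to the mean of the fibroblast markers, C3 was 1.59 to 2.48 with phytic acid and 1.17 to 2.17 with MC903 alone, and C1ra -1.09 to -0.07 with phytic acid and -1.05 to -0.17 with MC903 alone. The groups overlapped on that scale for both genes. With group means subtracted, the correlation with the fibroblast marker mean over the 8 libraries was 0.40 for C3 and 0.23 for C1ra. For C4b it was 0.12, for C3ar1 -0.19, for C1qc -0.37, for C1qa -0.43, for C1qb -0.47 and for Cfp -0.50. C3 and C1ra thus followed the fibroblast mean no more closely than the macrophage mean, and these values also carry no test. The part of fibroblast, macrophage or other cell numbers in the rise of C3 and C1ra was not tested.

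**Figure D4:**
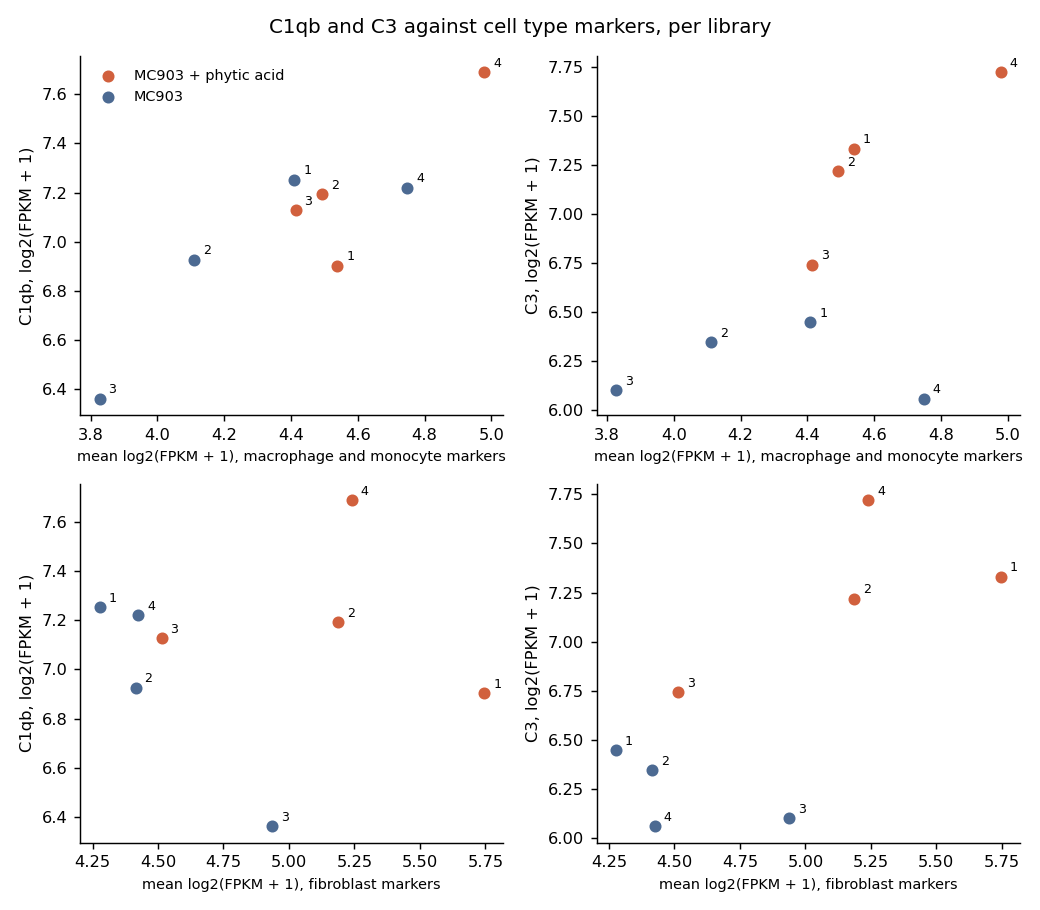
Log2(FPKM + 1) of C1qb (left panels) and C3 (right panels) against the mean log2(FPKM + 1) of macrophage and monocyte markers (upper panels) and of fibroblast markers (lower panels), 1 point per library, numbered by replicate, for MC903 plus phytic acid (orange) and MC903 (blue). MC903 replicate 3 is lowest for C1qb and for the macrophage markers, and C3 is above all MC903 libraries in each phytic acid library.

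Markers of other cell types are given as counts called, beside 14.2% higher and 11.6% lower over all genes tested. Langerhans and dendritic cell markers were called higher in 8 of 9 tested, those of smallest p being H2-Ab1 (log2 fold change 2.22 ± 0.32, SE), H2-Aa (2.11 ± 0.32) and H2-Eb1 (2.25 ± 0.35), and skeletal muscle markers in 11 of 12, those of smallest p being Mylpf, Pvalb and Ckm. The log2 fold change was 2.14 ± 0.24 (SE) for Mylpf, 2.94 ± 0.37 for Pvalb and 1.42 ± 0.18 for Ckm. The summed level of the 12 muscle markers was 8262 to 9756 FPKM with phytic acid and 3866 to 4511 FPKM with MC903 alone. T cell markers rose in 3 of 4 tested (Cd3g, Cd4 and Cd3d), and 1 of 10 endothelial markers (Cldn5). Neutrophil markers fell in 2 of 5 (Cxcr2 and S100a8) and mast cell markers in 2 of 8 (Fcer1a and Tpsab1). Of the genes called in these lists, Ccr7 and Tpsab1 reached an FPKM of 1 in all 4 libraries of the group where they were higher and in 1 of the other, and Cd207, Cd3d and Cd3g in 4 and 2, so they passed the filter through the higher group. Keratinocyte markers went both ways, with 3 of 12 higher (among them Krt15) and 2 lower (Dsg3 and Krt14). None of 3 tested blood markers was called, and Hbb-bs and Hba-a1 were the most abundant. The part of these cells in the complement values was not tested.

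Genes whose values followed a member within the groups were sought among all tested genes, as a description with no p. C1ra and C3 followed each other (r = 0.96 over 8 libraries, group means subtracted), and each had the other among its 5 most alike genes. The others for C3 were Ly86 (0.98), Hfe (0.98), Ang (0.96) and Bin2 (0.96), and for C1ra they were Ang (0.98), Capsl (0.97), Pnrc2 (0.95) and Ly86 (0.93). For C1qa they were Plekho1 (0.99), Faim (0.97), Fam151b (0.96), Sil1 (0.96) and Stx7 (0.96). For C3ar1 they were Lrrc25 (0.99), Slfn2 (0.99), Sdc3 (0.98), Ms4a6c (0.98) and Ms4a6b (0.98).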

How the data were processed

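Total RNA of 8 mouse skin libraries was sequenced (SMARTER mRNA-Seq kit, per the labels' protocols). The deposited values are FPKM, 1 for each gene in each library. Cutadapt, HISAT2, TopHat2, DESeq and mm10 are named in the submitters' processing notes. Their versions and roles, the annotation and the strand setting were not stated there.

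Of 21959 rows, 51 held no gene name (0.016% to 0.024% of the summed FPKM) and were dropped. Where a name was repeated (21 names), its row with the highest mean stood for it. FPKM multiplied by GENCODE M21 exon length gave whole reads, within 0.05, in all libraries for 17509 of 17980 genes (97.4%), which gave the library totals.

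Values were tested as log2(FPKM + 1), which understates changes of low genes, with limma 3.58.1 in R 4.3.3 (eBayes with trend, group as the factor) over the 12165 genes past the filter, with Benjamini-Hochberg adjustment, two-sided. The procedure was tested on simulated data. Ratios were tested with scipy 1.17.1. Fold changes are MC903 plus phytic acid minus MC903.

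The members, lists and rules were chosen with earlier results of these data known. Named are all members, a fixed set of complement genes, other called complement genes, and up to 3 markers per cell type. A complement gene that entered the counts is not reported here. Alternatives were pseudocounts, filters, scalings, library weights, eBayes settings, a replicate block and leaving out each library. Limma voom on the recovered reads was added after seeing the data, and called 1588 genes higher and 1350 lower.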

Additional observations from a re-analysis of the deposited data

Results flagged for a closer look

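Among 52 groups of 4 libraries searched for the 26 complement genes followed across settings, 4 had a library far from the others, where chance flags about 1 group in 20. C1qc was at 87.6 FPKM in MC903 plus phytic acid replicate 4, with the other 3 at 52.3 to 58.2 FPKM. Cd59a was at 20.997 FPKM in MC903 plus phytic acid replicate 3, with the others at 16.6 to 17.0 FPKM. Itgax was at 4.14 FPKM in MC903 plus phytic acid replicate 3, below the others at 8.33 to 9.04 FPKM. Cfd was at 326 FPKM in MC903 replicate 3, above the others at 100.3 to 134 FPKM.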

How the results depend on the processing

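C3 and C1ra kept direction and call in all 20 alternatives (adjusted p by limma 0.00207 to 0.0288 and 0.00182 to 0.0152). With 1 library left out, the log2 fold change was 0.86 to 1.185 for C3, 0.61 to 0.75 for C1ra, -0.17 to 0.20 for C1qa, 0.10 to 0.40 for C1qb, -0.019 to 0.27 for C1qc, 0.04 to 0.25 for C4b, -0.039 to 0.39 for Cfp, 0.23 to 0.55 for C3ar1 and 0.10 to 0.23 for Cfb. Changes of sign, none called, came for C1qa with median-of-ratios scaling (-0.028), library weights (-0.25) and without phytic acid replicate 4 (-0.10) or MC903 replicate 3 (-0.17). They came for C1qc with library weights (-0.014) and without phytic acid replicate 4 (-0.004) or MC903 replicate 3 (-0.019). Cfp changed sign without MC903 replicate 3. Cfb moved with pseudocounts of 0.1 (0.61) and 0.01 (0.89) and with TPM scaling (0.38), against 0.16, and all its FPKM values lie below the pseudocount of 1. The cause of the other changes was not tested.

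Called genes numbered 3134, against 4796 with library weights, 2046 with a replicate block and 2013 to 3979 with 1 library left out (2013 without MC903 replicate 1). Complement genes called higher numbered 7 to 11 across settings. Those called lower numbered 1, against 0 without a filter, 2 with library weights, 0 with a replicate block, and 0 to 2 with 1 library left out. No scaling moved the median of all genes by 0.1 or more. The labels do not say whether the replicate numbers pair the libraries. Deviations of same-numbered libraries from their group means correlated at -0.283, -0.105, -0.286 and 0.225. Phytic acid replicate 1 was most like MC903 replicate 3. These correlations show no likeness by number but cannot exclude a pairing. With the replicate block C3 and C1ra were still called (adjusted p = 0.0128 and 0.0152 by limma), C2 and Masp1 were not (0.0942 and 0.0875), and Itgb2 was called higher (0.0287). Depth limits Cfb, with 7 to 54 reads per library.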

Other observations

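Markers of hepatocytes, the main source of plasma complement, were mostly at or near the limit of detection. Of 8, only Trf and Ttr passed the filter. Trf (transferrin), which other cells also make, rose to 67.9 ± 24.6 FPKM in MC903 plus phytic acid libraries, against 31.9 ± 5.55 FPKM in MC903 libraries (SD, n = 4 each; log2 fold change 1.01 ± 0.24, SE; adjusted p = 0.0142 by limma). Fgb was listed at 0 in all 8 libraries.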
